A study of Mus musculus with 12 samples.

Results

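The loci described here are 9 mouse genes at which less H3K27ac was listed in transgenic than in wild type bone marrow cells and which do not encode granule proteins: Tmem45a2, Mmrn2, Cyp2j8, Lypd10, Lypd11, Treml4, Abhd6, Dnase1l3 and Ear2. They were taken by name from 21887 protein-coding genes, each with 10 kb on either side. Lypd10 and Lypd11 lie next to each other, as do Dnase1l3 and Abhd6, so the 9 genes make 7 separate loci, which hold 228 peaks of the 12 deposited lists. The genes were chosen by their H3K27ac peak coverage in these same libraries, so those values are a description without a test. The other marks, H3K4me1 and H3K4me3, took no part in the choice.

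The series profiled 3 histone marks by chromatin immunoprecipitation and sequencing (ChIP-seq) in cKit+ bone marrow cells of C57BL/6 mice, with 2 libraries for each mark and genotype. One group was wild type (WT). The other (Tg) carried Phf6R274X as a transgene, a truncating form of Phf6, an X-linked chromatin gene mutated in leukaemia. The promoter that drives the transgene, the age of the mice and any pooling of mice are not given in the sources used here. cKit is the receptor for stem cell factor and marks blood stem and progenitor cells.

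H3K27ac is an acetyl mark found at active promoters and enhancers. H3K4me1 marks enhancers, active or not, and the flanks of promoters, and H3K4me3 marks promoters in use. An enhancer can therefore hold H3K4me1 without H3K27ac. The genes have little in common by function. Mmrn2 is a glycoprotein of the endothelial cell matrix, and Cyp2j8 belongs to a family of fatty acid epoxygenases. Lypd10 and Lypd11 encode small proteins with a Ly6/uPAR domain, as does their neighbour Cd177 of neutrophils. Treml4 is a receptor of the TREM family found on monocytes and some macrophages and dendritic cells, and Ear2 is a secreted ribonuclease of eosinophils and monocytes. Dnase1l3 is a secreted nuclease made by dendritic cells and macrophages, and Abhd6 hydrolyses monoacylglycerols, including an endocannabinoid. Tmem45a2 encodes a predicted membrane protein.

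RefSeq promoter sequences (GRCm38.p6, the assembly called mm10) were matched for 6 of the 9 genes and cover 250 bases before and 50 after an annotated start. The promoters of Ear2 and Treml4 are shown because H3K27ac peaks of WT libraries reached into them. Capitals mark the 132 bases of Ear2 (chr14:44102404-44102703, plus strand) under H3K27ac peaks of both WT libraries, and the 225 bases of Treml4 (chr17:48264045-48264344, plus strand) under the peak of WT replicate 1. No Tg H3K27ac peak touched either.
Ear2: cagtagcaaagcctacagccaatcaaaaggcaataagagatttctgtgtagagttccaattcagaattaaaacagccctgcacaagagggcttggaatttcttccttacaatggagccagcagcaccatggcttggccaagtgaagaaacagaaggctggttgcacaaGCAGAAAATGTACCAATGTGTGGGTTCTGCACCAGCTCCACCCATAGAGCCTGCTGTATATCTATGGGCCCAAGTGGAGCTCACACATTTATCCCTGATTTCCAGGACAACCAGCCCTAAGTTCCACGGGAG
Treml4: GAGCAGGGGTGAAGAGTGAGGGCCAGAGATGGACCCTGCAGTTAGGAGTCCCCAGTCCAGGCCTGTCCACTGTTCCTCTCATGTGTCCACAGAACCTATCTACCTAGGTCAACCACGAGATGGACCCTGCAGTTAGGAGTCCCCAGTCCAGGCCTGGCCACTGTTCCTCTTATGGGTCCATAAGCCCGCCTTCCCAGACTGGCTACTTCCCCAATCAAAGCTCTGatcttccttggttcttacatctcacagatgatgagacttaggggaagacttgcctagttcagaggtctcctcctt
The Treml4 sequence holds a repeat of 40 identical bases starting at positions 26 and 117 of the window. The Ear2 window is 97.0% identical to the promoter of its relative Ear1 and 89.5% identical to that of Ear10. How reads that match several copies were handled is not given in the sources used here, so values at Ear2 are uncertain to that extent.

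The Abhd6 promoter is shown as the only one of the 6 that lay wholly under H3K4me3 peaks in all 4 libraries, with no H3K27ac peak in any. Capitals mark its 24 CpG dinucleotides (chr14:8002638-8002937, plus strand), and 80.0% of 32851 promoters hold fewer. Ear2 holds 1 CpG and Treml4 holds 2.
Abhd6: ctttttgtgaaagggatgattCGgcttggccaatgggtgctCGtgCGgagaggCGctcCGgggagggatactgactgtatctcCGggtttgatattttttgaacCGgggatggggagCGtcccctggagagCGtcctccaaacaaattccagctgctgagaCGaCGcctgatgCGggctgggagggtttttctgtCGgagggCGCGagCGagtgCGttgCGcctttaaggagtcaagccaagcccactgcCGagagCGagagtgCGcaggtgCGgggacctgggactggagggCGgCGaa
The promoters of Lypd10 (chr7:24709009-24709308, plus strand) and Lypd11 (chr7:24726859-24727158, minus strand) are shown because they resemble each other, with 74.8% identity over 310 aligned columns, and because no peak of any mark touched either. Capitals mark CCAAT on either strand, read as ATTGG on the reverse one. CCAAT occurs in 37.4% of promoters of this length and at least 4 times in 1.06%. The Lypd10 promoter holds 4 copies and the Lypd11 promoter shown holds 6. The promoter at another annotated start of Lypd11, chr7:24724241-24724540, holds 0. CCAAT is shown out of several short motifs that were counted, so these shares are a description only.
Lypd10: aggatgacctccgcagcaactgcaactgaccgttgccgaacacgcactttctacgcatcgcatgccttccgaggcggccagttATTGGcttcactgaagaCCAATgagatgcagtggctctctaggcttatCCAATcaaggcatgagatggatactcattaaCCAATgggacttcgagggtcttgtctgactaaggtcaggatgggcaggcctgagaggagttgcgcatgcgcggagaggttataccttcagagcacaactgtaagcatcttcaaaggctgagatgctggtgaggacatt
Lypd11: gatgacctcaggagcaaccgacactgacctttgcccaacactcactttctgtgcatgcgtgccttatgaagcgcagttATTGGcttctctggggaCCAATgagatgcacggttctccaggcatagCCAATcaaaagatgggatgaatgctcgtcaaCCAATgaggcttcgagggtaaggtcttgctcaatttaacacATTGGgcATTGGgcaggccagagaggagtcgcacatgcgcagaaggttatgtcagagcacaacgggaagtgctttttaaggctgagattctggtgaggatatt
Cyp2j8's promoter also had no peak of any mark. Tmem45a2, Mmrn2 and Dnase1l3 were not in the table, so their strand is not given here and positions are stated from their annotated lower and upper ends.

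The 12 lists hold between 31257 and 42124 peaks for H3K27ac, between 100316 and 130348 for H3K4me1 and between 34920 and 39584 for H3K4me3. They carry no read counts, so depth is unknown and the lack of a peak means only that none was listed. H3K27ac peaks covered 45.7 and 36.6 Mb of the genome in WT and 28.5 and 33.8 Mb in Tg. In H3K4me1 the replicate 2 libraries of both genotypes covered more, with 119.7 Mb in WT and 117.0 Mb in Tg against 66.3 and 70.7 Mb in the replicate 1 libraries. In the 4 H3K4me3 lists the names given to single peaks state the other genotype than the sample's label does, which is not so in the remaining 8 lists. Every H3K4me3 direction here is therefore by label only. Kdm5d, Eif2s3y, Uty and Ddx3y, all on the Y chromosome, had peaks in the H3K4me3 replicate 1 library of either label and in none of the other 10 libraries. Kit, which defines the cells, and Phf6 had H3K27ac peaks in all 4 libraries with overlapping genotypes, 2210 and 2064 bp at Phf6 in WT against 1988 and 2072 bp in Tg. In the other marks the genotypes did not overlap at Phf6. H3K4me1 covered 0 and 318 bp in WT, against 387 and 2587 bp in Tg (limma adjusted p = 0.461). By label, H3K4me3 covered 4416 and 3650 bp in WT, against 2406 and 2493 bp in Tg (limma adjusted p = 0.922). These peaks do not check the transgene.

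Across the 7 loci together, H3K27ac peaks covered 28463 and 21392 bp in the WT libraries and 785 and 1675 bp in the Tg libraries. The WT libraries listed 28 and 22 peaks there and the Tg libraries 1 and 5. At each of the 9 genes both Tg libraries lay below both WT libraries, which is how the genes were chosen. The same order held for 45.3% of 13604 genes tested and the reverse order for 5.59%, so Tg libraries covered less at many genes. After normalization the fitted change was below 0 at 44.6% of them. H3K4me1 in the same loci covered 12416 and 30178 bp in WT, against 14680 and 35092 bp in Tg. There the replicate number, not the genotype, separated high from low. H3K4me3 covered 3936 and 3978 bp in the libraries labelled WT and 6574 and 4205 bp in those labelled Tg.

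**Figure D1:**
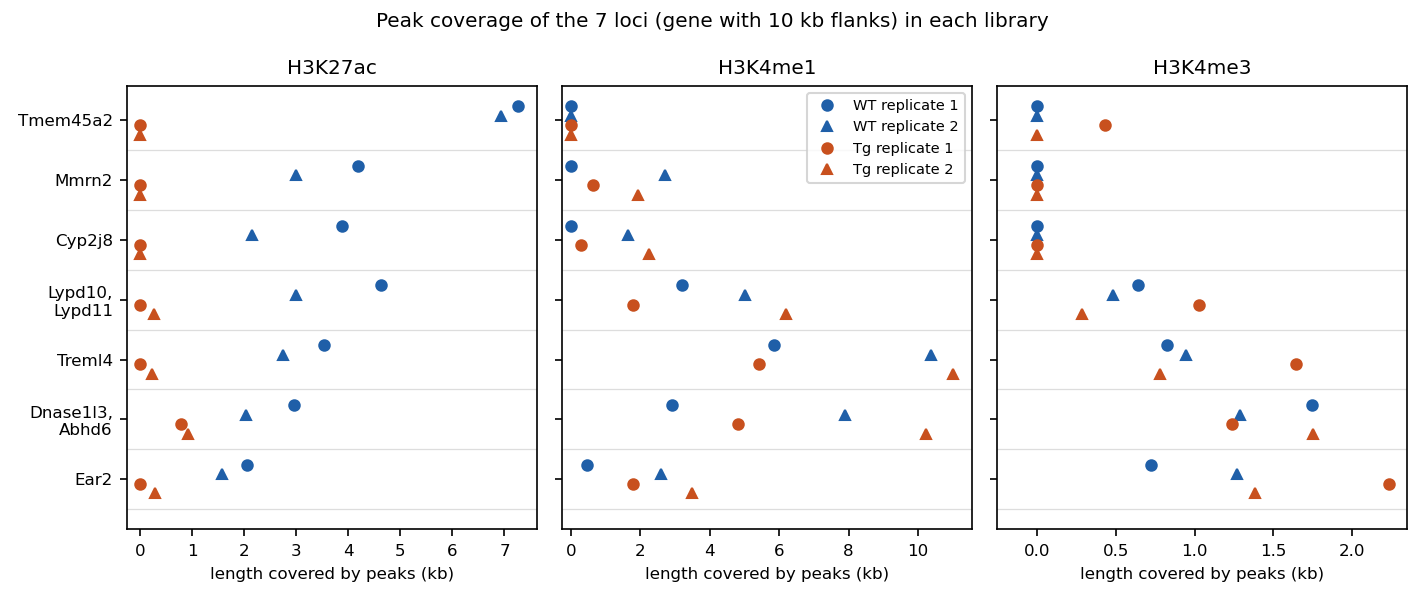
Length covered by peaks (kb, horizontal) at each of the 7 loci, a gene or gene pair with 10 kb flanks, in each library, 1 panel per mark with its own scale. Blue points are WT and orange points Tg, circles replicate 1 and triangles replicate 2. In H3K27ac every Tg point lies left of both WT points, while the genotypes overlap at every locus in H3K4me1.

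In the text that follows, overlapping or touching peaks of the 4 lists of a mark are merged into regions, and 1 bp of overlap with a library's peak is enough to call a region present there. WT-only means present in both WT libraries and in neither Tg library, and Tg-only the reverse. Fold is the authors' enrichment of a peak over background. A peak is called stronger than another of the same list where its deposited q-value is smaller, and neither value is compared between lists.

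Tmem45a2 (chr16:57036967-57071346) had the most H3K27ac of the 9 genes in WT and, like Mmrn2 and Cyp2j8, none in Tg. Its window held 7264 and 6932 bp of H3K27ac peaks in WT, against 0 bp in both Tg libraries, a fitted change of -3.60 ± 0.18 (SE) on the scale of log2(bp + 500) after quantile normalization. Where Tg libraries are at 0 bp the size of such a change depends on the bp added, and it was -5.52 with 100 bp and -2 with 2000 bp. Nearly all of it was a single block, chr16:57066064-57072314, which spans the gene's upper end. In WT replicate 1 the block was 1 peak of 6241 bp at 14.8-fold, stronger than 79.0% of that list. In WT replicate 2 it was 1 peak of 6197 bp at 12.1-fold, stronger than 65.4% of its list. At 6251 bp the block was the widest of the 2371 WT-only H3K27ac regions in the genome, whose median width was 637 bp. That width is part of the coverage by which the gene was chosen, so the rank is a description only. A pair of narrower WT-only regions lay about 7 kb beyond the gene, at chr16:57078541-57079047 and chr16:57079123-57079753, with folds between 3.9 and 4.5.

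No H3K4me1 peak was listed anywhere in the Tmem45a2 window in any of the 4 libraries. H3K4me3 had 2 narrow peaks inside the wide block, 260 and 172 bp, in the library labelled Tg replicate 1 and none in the other 3. The 3 WT-only regions of this locus thus had no H3K4me1 peak in either genotype, as did 281 of 2371 such regions (11.9%) in the genome and 519 of 19612 regions present in all libraries (2.65%). Tmem45a2 had a peak in too few libraries to be tested in either methyl mark.

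Mmrn2 (chr14:34375504-34404287) held 4190 and 2990 bp of H3K27ac peaks in WT, against 0 bp in both Tg libraries (fitted change -2.72 ± 0.18, SE). Most of it lay beyond the gene's upper end. The region chr14:34406493-34407606, 2206 bp from Mmrn2, was 1 peak of 930 bp at 7.1-fold in WT replicate 1 and 2 peaks of 437 and 592 bp in WT replicate 2. The wider region chr14:34410362-34412756 reached into the end of Bmpr1a, a receptor for bone morphogenetic proteins, with peaks of 2395 bp at 7.4-fold and 1961 bp at 10-fold. It ranked 10 of 2371 WT-only regions by width, which is likewise part of the coverage that chose the gene. Within the gene itself only a 256 bp peak of WT replicate 1 was listed, and another peak of that library, 609 bp wide, lay between the pair of WT-only regions.

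H3K4me1 at Mmrn2 covered 0 and 2703 bp in WT, against 631 and 1933 bp in Tg. WT replicate 1 was at 0 and the other 3 libraries overlapped. Both WT-only H3K27ac regions held H3K4me1 peaks in both Tg libraries and in WT replicate 2. Inside chr14:34410362-34412756 these covered 1432 bp in WT replicate 2, 393 bp in Tg replicate 1 and 1152 bp in Tg replicate 2. The fitted change in H3K4me1 was 0.42, with a 95% interval of -1 to 1.84, and limma's adjusted p was 0.862. No H3K4me3 peak was listed in the window in any library.

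Cyp2j8 (chr4:96443950-96507397, minus strand) held 3878 and 2140 bp of H3K27ac peaks in WT, against 0 bp in both Tg libraries (fitted change -2.48 ± 0.22, SE). The peaks flanked the gene's start at position 96507397 without touching it. Upstream, 2216 bp from the start, lay chr4:96509613-96511584, with peaks of 1942 bp at 14.0-fold in WT replicate 1 and 1657 bp at 9.7-fold in WT replicate 2. Inside the gene, 1322 bp from the start, lay chr4:96504420-96506075, with 1656 bp at 3.4-fold and 483 bp at 4.6-fold. A further 280 bp peak upstream was listed in WT replicate 1 alone.

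H3K4me1 at Cyp2j8 covered 0 and 1639 bp in WT, against 279 and 2237 bp in Tg, so each replicate 2 library lay above both replicate 1 libraries. The upstream region held 1387 bp of H3K4me1 in WT replicate 2, 279 bp in Tg replicate 1 and 1441 bp in Tg replicate 2. The inner region held 252 bp in WT replicate 2 and 479 bp in Tg replicate 2 only. The fitted change was 0.54 (95% interval -0.67 to 1.76, limma adjusted p = 0.777). No H3K4me3 peak was listed, as at Mmrn2.

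**Figure D2:**
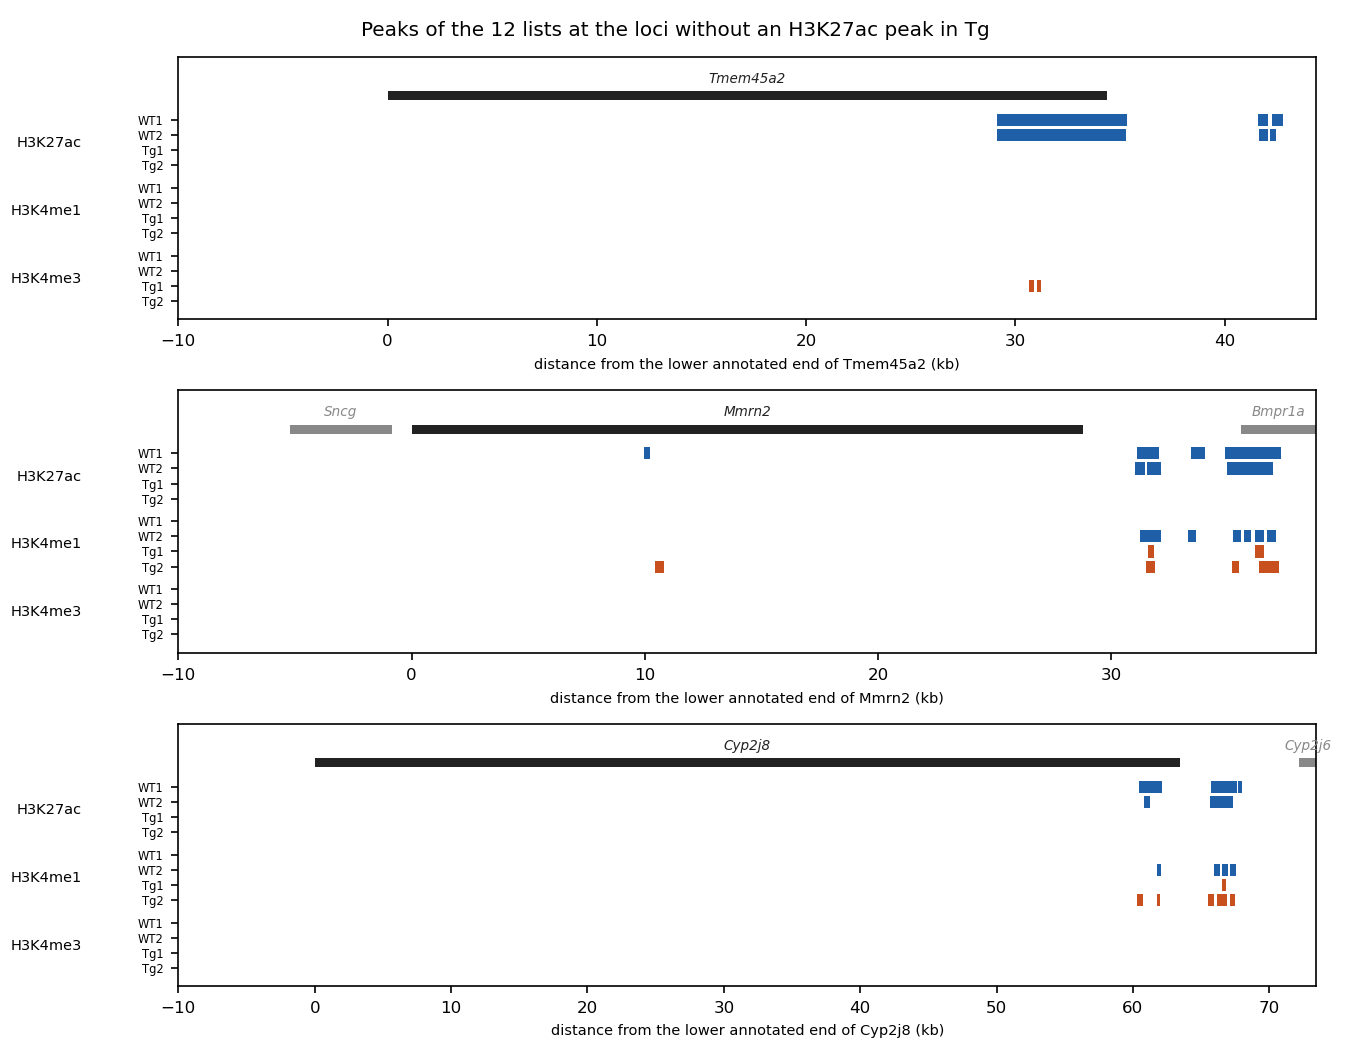
Peaks of the 12 lists at the 3 loci without an H3K27ac peak in Tg, as bars to scale. The horizontal axis is the distance in kb from the lower annotated end of Tmem45a2, Mmrn2 or Cyp2j8, and rows are libraries by mark, WT in blue and Tg in orange, below the genes (members in black, others in grey). H3K27ac bars appear in WT rows only, those of Mmrn2 and Cyp2j8 above H3K4me1 bars of Tg rows.

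Lypd10 (chr7:24709202-24714535, plus strand) and Lypd11 (chr7:24715031-24726908, minus strand) point toward each other, and their H3K27ac lay where their ends meet and upstream of Lypd11, with none touching an annotated start. Lypd10's window held 2275 and 2180 bp of H3K27ac in WT, against 0 and 263 bp in Tg (fitted change -2.02 ± 0.15, SE). Lypd11's window held 4618 and 2991 bp in WT, against the same 0 and 263 bp in Tg (-2.62 ± 0.17). The shared region chr7:24714052-24715736 spans the ends of both genes. It was 1 peak of 1681 bp at 15.7-fold in WT replicate 1, stronger than 80.0% of that list, and 1 peak of 1661 bp at 10.7-fold in WT replicate 2. Tg replicate 1 had no peak there, and Tg replicate 2 had one of 263 bp at 3.4-fold, stronger than 9.4% of its list.

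A second region next to it, chr7:24715861-24716459, was WT-only, with 594 and 519 bp. Upstream of Lypd11 lay WT-only regions at chr7:24733308-24733983, with 676 and 415 bp, and chr7:24734471-24735149, with 679 and 396 bp. On either side of them were peaks of 487 and 501 bp in WT replicate 1 alone. The outermost of these also lie within 10 kb of Cd177, so the values of Lypd11 and Cd177 share peaks.

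H3K4me1 in the Lypd11 window covered 2805 and 4455 bp in WT, against 1771 and 5522 bp in Tg, and in the Lypd10 window 2278, 3467, 1534 and 4018 bp in the same order. Tg replicate 2 was highest and Tg replicate 1 lowest at both, so the Tg libraries bracketed the WT ones. At the shared region every library kept H3K4me1, with 1396 and 1625 bp in WT, against 855 and 1462 bp in Tg. The region next to it held 465 and 577 bp in WT, against 587 and 563 bp in Tg. By contrast, chr7:24733308-24733983 held no H3K4me1 in any library, and chr7:24734471-24735149 only 89 bp in Tg replicate 2. The fitted changes were -0.04 (95% interval -0.66 to 0.58, limma adjusted p = 0.98) at Lypd10 and -0.03 (-0.74 to 0.68, adjusted p = 0.985) at Lypd11.

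By label, H3K4me3 in the Lypd11 window covered 641 and 480 bp in WT, against 1029 and 289 bp in Tg (limma adjusted p = 0.968). A region at chr7:24735789-24736407, 8881 bp from Lypd11, was listed in all 4 libraries. The rest were narrow peaks under the shared H3K27ac region, 1 in each library labelled WT and 2 in Tg replicate 1.

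Treml4 (chr17:48264200-48275607, plus strand) held 3523 and 2747 bp of H3K27ac in WT, against 0 and 224 bp in Tg (fitted change -2.42 ± 0.14, SE). It had 3 WT-only regions. The nearest to its start at position 48264295 was chr17:48263260-48264269, 26 bp away, with 1006 bp at 5.4-fold and 506 bp at 4.9-fold in WT. Farther upstream lay chr17:48260483-48261989, with 2 peaks in WT replicate 1, the stronger at 11.1-fold, and 1 of 1302 bp at 4.3-fold in WT replicate 2. At the gene's far end lay chr17:48274045-48275032, with 890 bp at 5.9-fold and 656 bp at 5.6-fold. The 224 bp of Tg replicate 2 lay elsewhere, about 6 kb beyond the gene at chr17:48281302-48281647, where WT replicate 1 had 275 bp.

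Treml4 had the most H3K4me1 of the 9 genes, with 5863 and 10368 bp in WT, against 5411 and 11007 bp in Tg. The replicate 2 libraries were about equal to each other, as were the replicate 1 libraries. All 3 WT-only H3K27ac regions held H3K4me1 in all 4 libraries. The one at the gene's far end was wholly under H3K4me1 in both WT libraries and in Tg replicate 2, and 838 of its 988 bp were in Tg replicate 1. It lay under the strongest H3K4me1 peaks of the 7 loci. These reached 6.7- and 8.1-fold in WT and 4.9- and 11.8-fold in Tg, and each was stronger than at least 98.1% of its own list. The fitted change was 0.03 (95% interval -0.50 to 0.56, limma adjusted p = 0.98).

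H3K4me3 was not listed at the Treml4 start in any library. A region 5492 bp beyond the gene, chr17:48281099-48282157, had peaks of 824 and 945 bp in the libraries labelled WT and 1059 and 782 bp in those labelled Tg. The library labelled Tg replicate 1 alone had a further 584 bp peak inside the far-end H3K27ac region. By label the window's values of 824, 945, 1643 and 782 bp overlapped (fitted change 0.34, limma adjusted p = 0.934).

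Dnase1l3 (chr14:7965187-7994760) and Abhd6 (chr14:8002888-8056773, plus strand) share the region that differed most between them, chr14:7994035-7996261, which spans the upper end of Dnase1l3 and lies 6627 bp from the Abhd6 start. It was 1 peak of 2227 bp at 7.7-fold in WT replicate 1 and 2 peaks of 609 and 1039 bp, at 6.6- and 6.2-fold, in WT replicate 2. Tg replicate 1 had none, and Tg replicate 2 had 283 bp at 4.7-fold. This region was all the H3K27ac in the Abhd6 window, which held 2227 and 1648 bp in WT, against 0 and 283 bp in Tg (fitted change -1.83 ± 0.15, SE).

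Dnase1l3 kept a second region, chr14:7977473-7978559, inside the gene, the only H3K27ac region of the 7 loci listed in all 4 libraries. Its peaks were 716 and 384 bp wide in WT and 785 and 629 bp in Tg. Dnase1l3 as a whole held 2943 and 2032 bp in WT, against 785 and 912 bp in Tg. Its fitted change of -0.91 ± 0.17 (SE) was the smallest of the 9, and it was the only gene with peaks in both Tg libraries.

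H3K4me1 at Dnase1l3 covered 2910 and 7229 bp in WT, against 4313 and 9284 bp in Tg, and at Abhd6 1760 and 4222 bp in WT, against 3312 and 5132 bp in Tg. Within each replicate number Tg lay above WT, while across all 4 libraries the genotypes overlapped. The shared H3K27ac region held H3K4me1 in every library, 1515 and 1988 bp in WT, against 1483 and 2197 bp in Tg. Inside Dnase1l3, chr14:7975736-7976228 was the only Tg-only H3K4me1 region of the 7 loci, with 237 and 493 bp. The fitted change at Abhd6 was 0.56 (95% interval 0.04 to 1.08, unadjusted p = 0.0396, limma adjusted p = 0.56), and at Dnase1l3 it was 0.47 (-0.15 to 1.09, adjusted p = 0.654).

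H3K4me3 at the Abhd6 promoter, chr14:8002534-8003686, was listed in all 4 libraries, with 1097 and 1118 bp in those labelled WT and 895 and 1092 bp in those labelled Tg. Folds there ran from 9.2 to 24.4. Within the list of WT replicate 1, the 24.4-fold peak had the highest fold of the H3K4me3 peaks in the 7 loci. A second region between the genes, chr14:7996957-7997677, was also in all 4. Both windows held the same peaks, 1747 and 1286 bp against 1235 and 1753 bp (fitted change 0.05, 95% interval -0.33 to 0.43, limma adjusted p = 0.972).

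Ear2 (chr14:44102654-44103531, plus strand) is the only one of the 9 genes whose known start lay under a WT-only H3K27ac region. Its window held 2047 and 1560 bp in WT, against 0 and 276 bp in Tg (fitted change -1.76 ± 0.15, SE). The region chr14:44102531-44103997 covers the whole gene, with peaks of 944 bp at 3.2-fold and 315 bp at 5.5-fold in WT replicate 1 and 643 bp at 5.5-fold and 450 bp at 9.0-fold in WT replicate 2. Just beyond it, chr14:44104349-44104815 had 421 and 467 bp in WT, against 276 bp in Tg replicate 2. Another region at the lower edge of the window, chr14:44091809-44092675, was WT-only, although only its last bases lie within 10 kb of Ear2. WT replicate 1 alone had a further peak of 345 bp.

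H3K4me1 at Ear2 covered 452 and 2579 bp in WT, against 1776 and 3492 bp in Tg, with the 4 libraries overlapping. Inside the region over the gene, WT replicate 1 had none, WT replicate 2 had 852 bp, and the Tg libraries had 389 and 1349 bp. The fitted change of 0.84 was the largest of the 9 genes in H3K4me1 (95% interval 0.13 to 1.55, unadjusted p = 0.0289), and its limma adjusted p was 0.532.

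H3K4me3 covered the Ear2 start in all 4 libraries. The window held 724 and 1267 bp in the libraries labelled WT and 2235 and 1381 bp in those labelled Tg. Ear2 was the only one of the 9 at which both libraries labelled Tg lay above both labelled WT, an order that 11.6% of 16136 genes showed. The peak of Tg replicate 1 was 1730 bp wide at 18.4-fold. The fitted change was 0.72 (95% interval -0.17 to 1.60) and the limma adjusted p was 0.922.

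**Figure D3:**
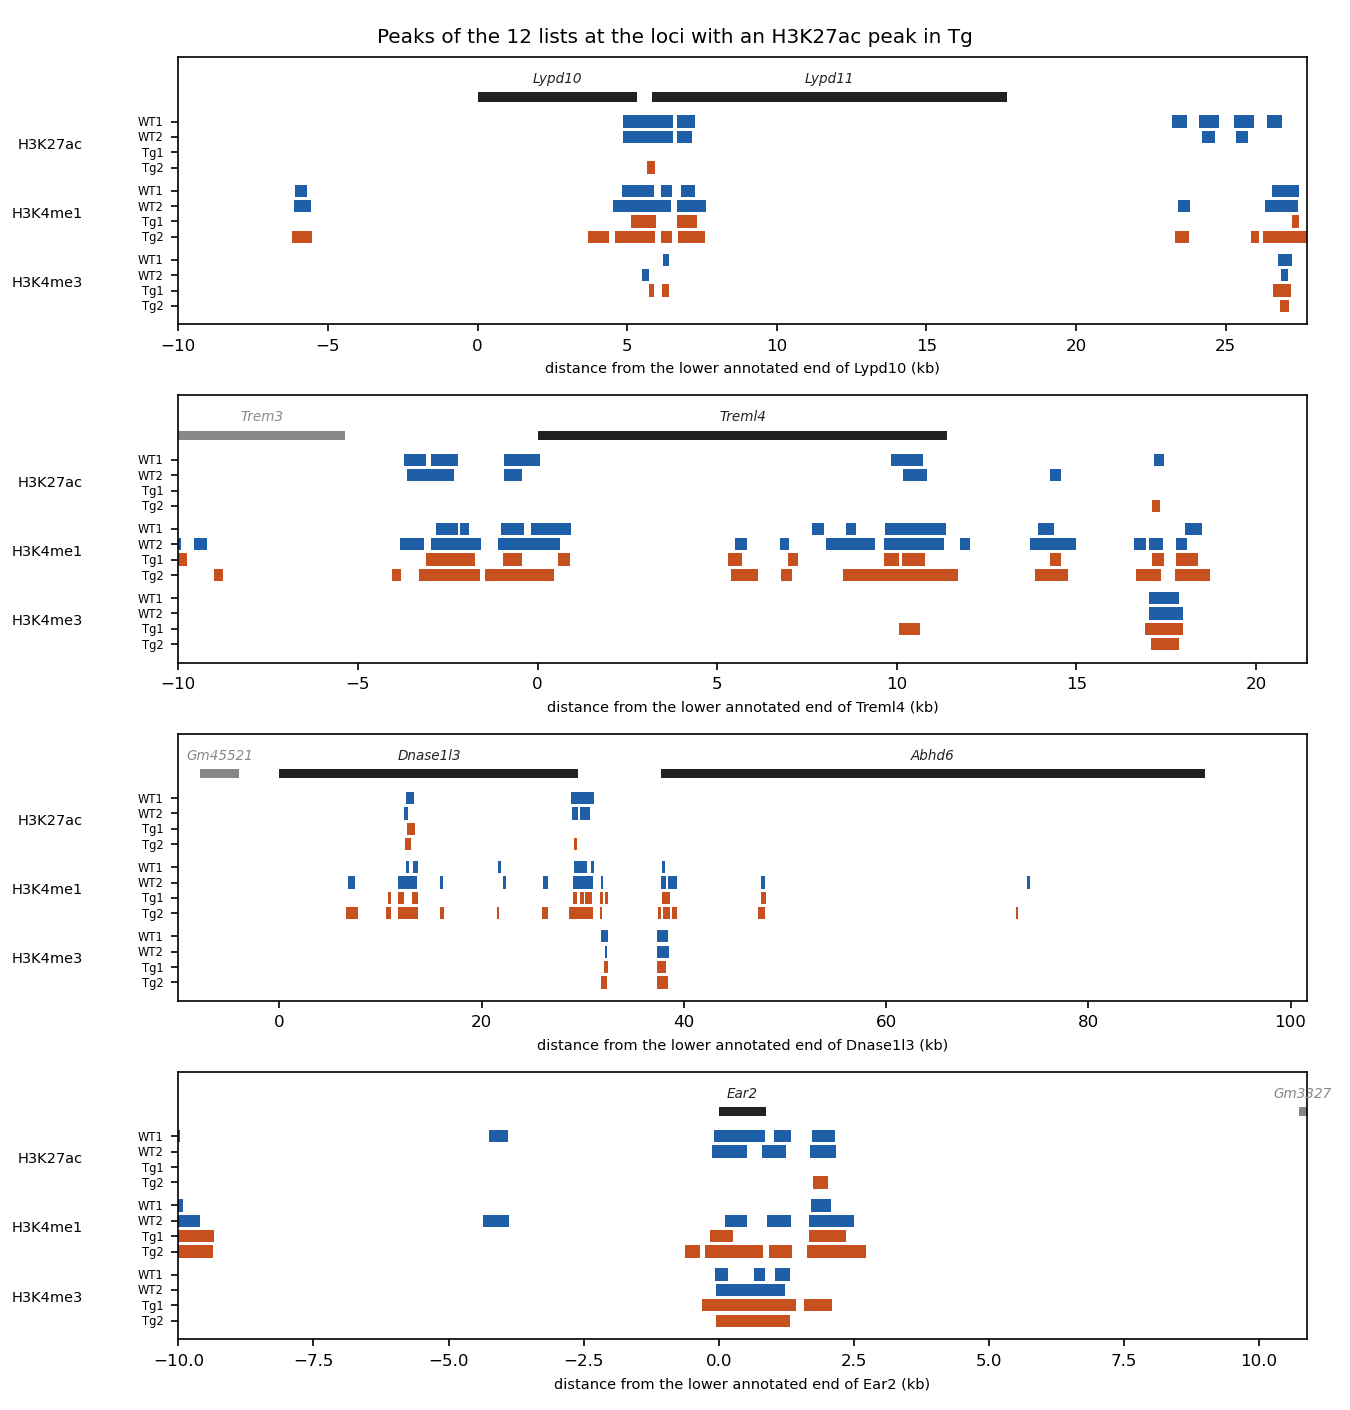
Peaks of the 12 lists at the 4 loci with an H3K27ac peak in at least 1 Tg library, drawn to scale by distance in kb from the lower annotated end of Lypd10, Treml4, Dnase1l3 or Ear2. Rows are libraries by mark, WT in blue and Tg in orange, members in black and other genes in grey. Dnase1l3 has the only H3K27ac bars in both Tg rows, and H3K4me1 bars of Tg rows lie under most WT H3K27ac bars.

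Taken by region, the 7 loci held 27 H3K27ac regions. Of these, 15 were WT-only, 7 were in a single WT library, 4 were in both genotypes but not in all libraries, 1 was in all libraries and 0 were Tg-only. The 15 include the region at the lower edge of the Ear2 window, of which only the last bases lie inside. Its WT replicate 2 peak lies outside the window, and the region is counted whole here and below. In the genome 4.90% of 48376 H3K27ac regions were WT-only and 1.94% Tg-only. The genes were chosen for less H3K27ac in Tg, so the larger WT-only share in the loci was set by that choice. The loci held 51 H3K4me1 regions, of which 14 were in all libraries, 0 were WT-only and 1 was Tg-only, against 3.25% and 1.97% of 139885 regions in the genome. Of 11 H3K4me3 regions, 5 were in all libraries, 0 WT-only and 0 Tg-only, against 2.24% and 1.47% of 44957.

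Of the 15 WT-only H3K27ac regions, 11 held an H3K4me1 peak in at least 1 Tg library, 9 in both Tg libraries and 10 in at least 1 WT library. None had H3K4me1 in both WT libraries and in neither Tg library, a pattern seen at 9 of the 2371 WT-only regions in the genome. The genome's WT-only regions held H3K4me1 in at least 1 Tg library in 85.9% of cases and in both in 69.5%. The shares in the loci, 73.3% and 60%, were below these, with Tmem45a2 giving 3 of the 4 regions without it in Tg. H3K4me3 was in at least 1 library labelled Tg at 3 of the 15 regions (20%), against 30.1% of WT-only regions in the genome.

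The few Tg peaks lay in the weaker part of their own lists. The genes were chosen for less H3K27ac in Tg, so this describes the choice. The 5 H3K27ac peaks of Tg replicate 2 had folds between 3.4 and 5.2. Their median was stronger than 25.4% of that list, and none was stronger than more than 34.9%. The single peak of Tg replicate 1 was stronger than 9.8% of its list. In WT replicate 1 the loci's 28 peaks ran from 3.2- to 15.7-fold, with a median peak stronger than 48.3% of its list, and in WT replicate 2 the median peak was stronger than 33.2%. In both WT libraries the 2 strongest peaks were those at the ends of Lypd10 and Lypd11 and at Tmem45a2.

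H3K27ac coverage was compared across all genes with limma, and 0.228% of 13604 genes fell and 0.154% rose at an adjusted p under 0.05. Of the 9 genes 8 are among those that fell, which is what they were chosen for, and Dnase1l3 is not. All of these calls over the genome were lost when either WT library was left out, with 0 genes that fell and 0 that rose by limma and 959 (without WT replicate 1) or 1199 (without WT replicate 2) at an unadjusted p under 0.05. Without Tg replicate 1 there were 273 that fell and 134 that rose, and without Tg replicate 2 there were 349 and 173.

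In H3K4me1, 8 of the 9 genes could be tested. Their fitted changes were higher in Tg at 6 and lower at 2, with a median of 0.44 against 0.00 for all genes, and 0 passed, with limma adjusted p between 0.532 and 0.985. Of all genes 49.6% were fitted below 0. At 0 of the 8 did both Tg libraries lie on one side of both WT libraries, as they did below at 6.48% and above at 2.50% of genes. Over all genes 0% of 16134 rose and 0% fell by limma, while 1357 (8.41%) had an unadjusted p under 0.05, Abhd6 and Ear2 among them. In H3K4me3, 6 could be tested and all 6 fitted changes were above 0 by label, with a median of 0.22 against 0.00. Of these 0 passed (limma adjusted p between 0.922 and 0.972). Abhd6 and Dnase1l3 held the same H3K4me3 peaks, and the windows of Lypd10 and Lypd11 overlap. In both methyl marks these counts and medians are therefore not of separate loci. Of all genes 49.1% were fitted below 0. Only Ear2 had groups that did not overlap, higher in Tg, and the opposite order, seen at 18.2% of genes, occurred at 0 of the 6. When scaled to equal total covered length, Lypd10, Abhd6 and Dnase1l3 turned to -0.07, -0.01 and -0.01 in H3K4me3 and Treml4 to -0.04 in H3K4me1. Of 16136 genes 0% rose and 0% fell, and 737 had an unadjusted p under 0.05. The intervals are wide, and misses of the threshold do not show that the genotypes were alike.

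**Figure D4:**
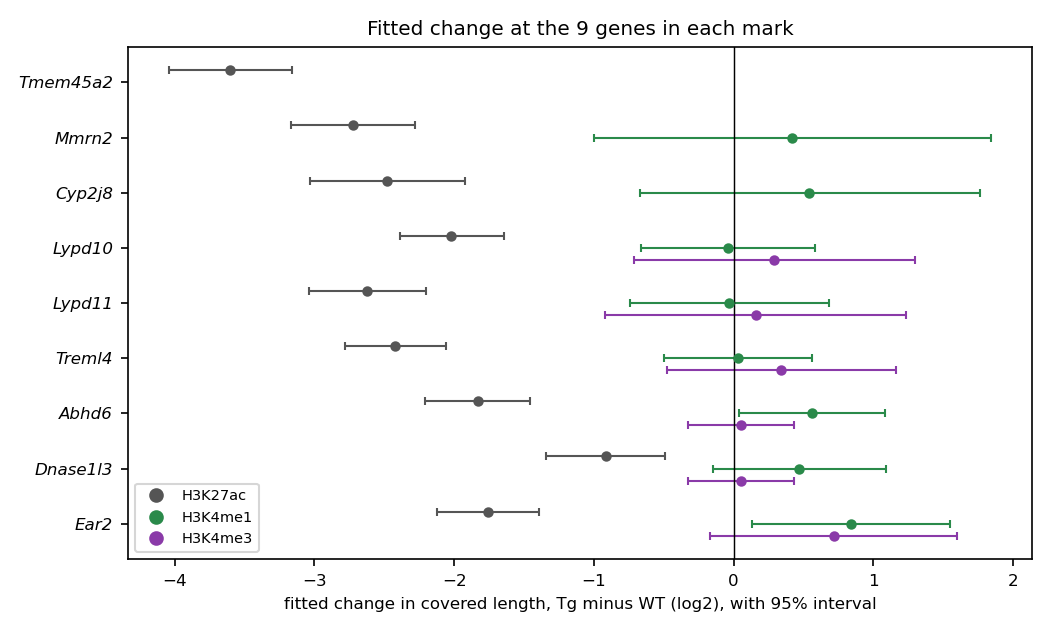
Fitted change in peak coverage, Tg minus WT on the log2(bp + 500) scale (horizontal), at the 9 genes for H3K27ac (grey), H3K4me1 (green) and H3K4me3 (purple, by label), with 95% intervals from limma. H3K27ac estimates run from -3.60 to -0.91 and chose the genes, while the other marks lie between -0.04 and 0.84, and a mark without a point could not be tested.

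Relatives and neighbours of the 9 genes were taken from lists of 8 families and clusters. Among 46 such genes other than the 9, 25 could be tested in H3K27ac, of which 1 fell and 0 rose, with a median change of -0.08. The one that fell was Cd177, a neutrophil surface protein 17.1 kb from Lypd11, with 14242 and 10539 bp in WT, against 2500 and 3156 bp in Tg (change -1.61, limma adjusted p = 0.0367). The call is near the threshold and was lost under several alternatives, for instance with no filter (adjusted p = 0.0574) or without WT replicate 1 (0.505) or WT replicate 2 (0.286). In H3K4me1 and H3K4me3, 32 of the 46 could be tested and 0 rose or fell in either.

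In the Trem cluster around Treml4, Trem3 held 10816 and 9139 bp of H3K27ac in WT, against 3921 and 3861 bp in Tg (-0.91, limma adjusted p = 0.118). Treml2 changed by -0.72 (adjusted p = 0.198) and Trem1, an activating receptor of neutrophils and monocytes, by -0.26 (0.513). All 3 had both Tg libraries below both WT libraries, as had 45.3% of all genes, and none passed. In the Cyp2j cluster, Cyp2j6 held 2598 and 1657 bp in WT, against 364 and 1002 bp in Tg (-0.96, adjusted p = 0.166), and Cyp2j9 changed by 0.41 (0.588). Cyp2j5, Cyp2j11, Cyp2j12 and Cyp2j13 were at 0 bp in all 4 libraries. The windows of Trem3, Cyp2j6, Bmpr1a and Gm3327 overlap those of Treml4, Cyp2j8, Mmrn2 and Ear2 and contain some of the same peaks, so their values are not separate measurements.

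In the other families 0 relatives passed in H3K27ac. Of the ribonucleases, Ear10 held 625 and 636 bp in WT, against 444 and 639 bp in Tg, and Ear1, Ear6 and Ear14 were at 0 bp. Dnase1l1 changed by 0.61 (limma adjusted p = 0.22) and Dnase2a by -0.15. Among monoacylglycerol and endocannabinoid enzymes, Mgll, the main monoacylglycerol lipase, changed by -0.44 (adjusted p = 0.454) and Daglb by 0.27. Mmrn1, a multimerin of platelets, held 328 and 361 bp in WT, against 0 bp in both Tg libraries (-0.45, adjusted p = 0.487), and Emilin2 changed by 0.63 (0.241). Tmem45a, 151 kb from Tmem45a2, held 292 and 367 bp in WT, against 0 bp in Tg (-0.44, adjusted p = 0.51).

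Among lists of cell type markers, mature neutrophil genes also had less H3K27ac in Tg. The lists were chosen with earlier results of these data known, so their counts and calls are a description only. At 14 mature neutrophil genes, H3K27ac covered 147.6 and 144.4 kb in WT, against 68.6 and 66.4 kb in Tg. Of these genes 13 were lower in Tg (44.6% of all genes were) and 3 (0.228% of all genes fell), Mmp8, Cd177 and Olfm4, fell by limma (adjusted p = 0.047, 0.0367 and 0.0266). At 10 progenitor genes it covered 83.4 and 70.4 kb in WT, against 67.0 and 77.1 kb in Tg, and 1, Mpo, rose. In bulk cells, fewer cells of a type and less of a mark per cell cannot be told apart. In H3K4me3 the same neutrophil genes covered 77.8 and 77.1 kb in the libraries labelled WT and 123.0 and 81.3 kb in those labelled Tg. The higher sum rested mostly on Tg replicate 1. All 14 were fitted higher and 0 passed by limma, while 49.1% of all genes were fitted below 0. This was not particular to neutrophil genes, as all 10 erythroid and all 8 B cell genes were also fitted higher. Among 10 progenitor genes 1 was. The part of neutrophil content in the values of the 9 genes was not tested.

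Several of the 9 genes are themselves used as markers. Without Treml4 and Ear2, the 10 other markers of Ly6C-low monocytes held 39.5 and 35.9 kb of H3K27ac in WT, against 28.2 and 25.9 kb in Tg. Of 8 that could be tested 6 were lower (44.6% of all genes were) and 2 higher, and 0 passed. Cd300e, of this list, held 1303 and 1521 bp in WT, against 312 and 244 bp in Tg, whereas Nr4a1, the defining transcription factor of these monocytes, held 9976 and 9328 bp in WT, against 6339 and 7180 bp in Tg, a fitted change of -0.11 (limma adjusted p = 0.796). Ace and Fabp4, also of this list, were at 0 bp of H3K27ac in all 4 libraries. H3K4me1 peaks at Ace covered 570 and 731 bp in WT, against 703 and 954 bp in Tg. Without Mmrn2, 17 endothelial genes held 31.6 and 25 kb in WT, against 24.8 and 26.9 kb in Tg. Of 7 tested, 5 were higher in Tg, 2 lower and 0 passed. Of the 17 genes 8, including Tek, Emcn, Esam and Cldn5, were at 0 bp in all 4 libraries. Eosinophil genes other than Ear2 held 13.6 and 10.2 kb in WT, against 7.4 and 9.2 kb in Tg, where 3 of 6 tested were higher, 3 lower and 0 passed. Of these, Alox15, a lipoxygenase of eosinophils, held 5727 and 5021 bp in WT, against 1479 and 3302 bp in Tg, a fitted change of -0.81 (limma adjusted p = 0.274). Epx, the eosinophil peroxidase, had 1 peak of 360 bp in Tg replicate 1 alone. Dendritic cell genes other than Dnase1l3 held 16.4 and 15.4 kb in WT, against 8.9 and 13 kb in Tg, with Siglech, Irf8 and Cd209a at 0 bp. Of 4 tested, 2 were higher in Tg, 2 lower and 0 passed. The part of these cell types in the members' values was not tested.

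**Figure D5:**
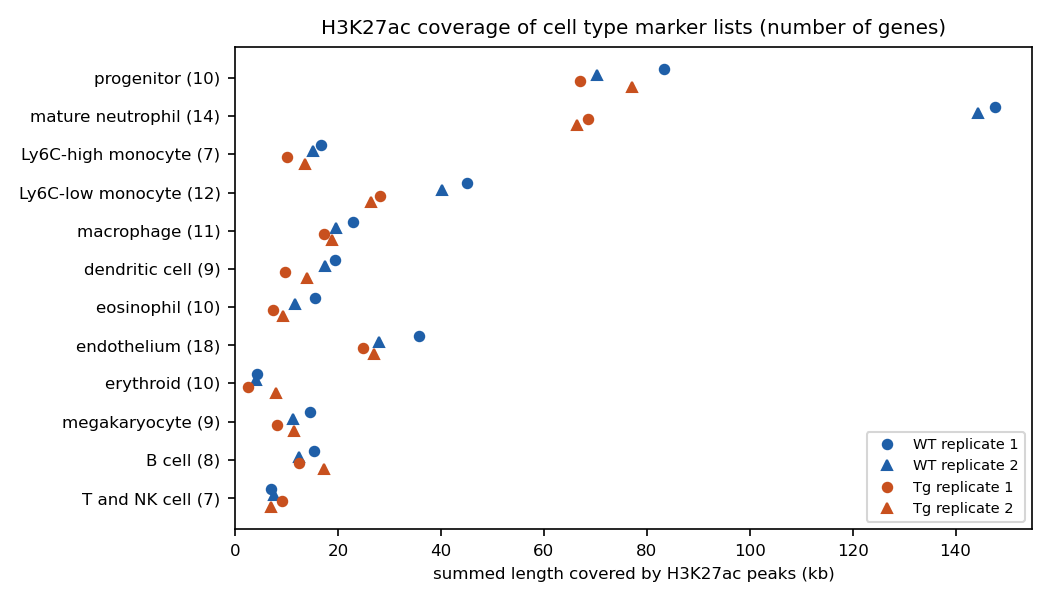
Summed length covered by H3K27ac peaks (kb, horizontal) at genes of 12 cell type marker lists, with the number of genes in each, in the 2 WT (blue) and 2 Tg (orange) libraries. The mature neutrophil list shows the widest gap, with 147.6 and 144.4 kb in WT, against 68.6 and 66.4 kb in Tg, and the Ly6C-low monocyte, eosinophil, endothelium and dendritic cell lists include members described here.

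The genes whose coverage in all 12 libraries was most like the mean of the 9, among those over 100 kb from each of them, were H2-Aa, Eml1, Abcg3, Cyp4x1 and Ptpn5, by Euclidean distance of log2(bp + 500). H2-Aa, an MHC class II chain of antigen-presenting cells, was nearest at a distance of 1.52. It held 3298 and 1438 bp of H3K27ac in WT, against 0 bp in both Tg libraries, with 2105 and 2114 bp of H3K4me1 in WT, against 2153 and 2565 bp in Tg. Eml1 followed at 1.61 with 2311 and 1939 bp of H3K27ac in WT, against 258 and 382 bp in Tg. Of the 9 genes themselves, Lypd11 (1.51) and Lypd10 (1.58) lay nearest the mean and Tmem45a2 (5.40) farthest from it. The rest of the 9 lay between 2.13 and 3.61, farther than each outside gene named here (1.52 to 1.84). The distance includes the H3K27ac values that chose the 9, so less H3K27ac in Tg at the outside genes follows from the ranking.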

How the data were processed

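ChIP-seq libraries of H3K27ac, H3K4me1 and H3K4me3, 2 for each genotype and mark, were single-end 75 bp, per the labels' protocols. The submitters' processing notes name build mm10, MACS2, Bowtie2, Trim Galore, SAMtools, FastQC and deepTools. Versions, settings and any control library are not given in the sources used here. The authors deposited 1 peak list per library. For each peak the authors gave a score, a ratio (fold enrichment) and, as −log10 values, its p-value and q-value. There are no counts, so depth is unknown and no interval from depth was computed. Fold and q depend on depth and were used only within a list.

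The members and gene lists were chosen with earlier results of these data known. Peak-covered bp in each gene with 10 kb flanks (RefSeq, GRCm38.p6) was taken as log2(bp + 500) and quantile normalized, and genes needed a peak in at least 2 of 4 libraries. Genotypes were compared per mark in limma 3.58.1 (lmFit, eBayes) with Benjamini-Hochberg adjustment over all genes and a threshold of 0.05. Tested on simulated data, H3K27ac calls recovered 91% of genes changed by 2 log2 units, H3K4me1 calls 64% and H3K4me3 calls 90%. These ran over 13604, 16134 and 16136 genes, with 11, 9 and 9 false calls. Recovery at genes at 0 bp in Tg, or without normalization, was not tested. Named genes are the 9 members, Kit and Phf6, genes overlapping the windows, members of 8 family lists with an H3K27ac peak in at least 2 libraries, 12 marker lists by counts, and the 5 most alike genes. Genes named from marker lists, among them genes at 0 bp, and the Y-linked genes were chosen after their values were seen. Nothing in the labels says that replicates came from separate mice, so p-values measure only the spread between 2 libraries per genotype. In H3K4me3 the replicates of each label differed in Y-linked peaks, so there they were not technical repeats of the same cells. For example, Uty held 3365 and 0 bp in the libraries labelled WT and 2498 and 0 bp in those labelled Tg. In H3K27ac and H3K4me1 the spread may be technical. Alternatives were other pseudocounts, normalizations, filters, windows, stricter peaks, a replicate block and leaving out each library.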

Additional observations from a re-analysis of the deposited data

How the results depend on the processing

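All 133 alternative H3K27ac estimates at the 9 genes stayed below 0, the sign the genes were chosen for, from -5.52 to -0.52, and 52 of them moved by more than the spread between replicates. With pseudocounts of 100 and 2000 bp Tmem45a2 was at -5.52 and -2, Mmrn2 at -4.56 and -1.33, Cyp2j8 at -4.28 and -1.16 and Ear2 at -3.13 and -0.76. Genes that fell in H3K27ac numbered 31, and 8 with a pseudocount of 100 bp, 50 with 2000 bp, 1 without normalization, 3 scaled to equal total length, 15 without a filter, 5 with 2 kb flanks and 10 with equal numbers of strongest peaks. Genes that rose numbered 21, and 1 with a pseudocount of 100 bp, 0 without normalization, scaled or with 2 kb flanks, 3 without a filter, 6 with strongest peaks and 6 with −log10 q of at least 5. The share of calls that fell was 59.6%, and 100% without normalization and when scaled. Without normalization the median of all genes was -0.22 against 0.03, and the 9 genes ran from -3.93 to -1.13. Leaving out a library gave 0 to 349 that fell and 0 to 173 that rose. In H3K4me1, 1 gene fell with a pseudocount of 2000 bp and 1 without normalization. The causes were not tested.

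Replicate numbers pair no animals in the labels, and deviations of same-numbered libraries correlated at -0.233 in H3K27ac, 0.261 in H3K4me1 and -0.090 in H3K4me3. With the replicate block 34 genes fell and 13 rose in H3K27ac. With the numbers crossed, chosen after seeing the data, 32 rose.

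WT-only H3K27ac regions numbered 4209 when peaks had to cover 50% of a region. With −log10 q of at least 5, H3K4me1 gave 2030 WT-only and 1771 Tg-only regions, and H3K4me3 gave 370 Tg-only. Leaving out a library, chosen after seeing the data, demands fewer libraries and so raises counts. H3K27ac WT-only regions then numbered 3160 to 12191 and Tg-only 1302 to 5179, H3K4me1 5589 to 26075 and 3440 to 20415, and H3K4me3 1861 to 6114 and 1234 to 3828.

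Some fitted directions in the methyl marks turned. In H3K4me1, stricter q gave -0.13 at Mmrn2, 0.19 at Lypd10, 0.23 at Lypd11 and -0.08 at Treml4. With 2 kb flanks Lypd10 was at 0.06, Lypd11 at 0.02 and Treml4 at -0.14. Treml4 was at -0.01 without normalization and -0.04 scaled. Leaving out 1 library gave -0.41 to 1.26 at Mmrn2, -0.01 to 1.09 at Cyp2j8, -0.23 to 0.14 at Lypd10, -0.35 to 0.27 at Lypd11 and -0.11 to 0.17 at Treml4. In H3K4me3, Lypd10 was at -0.07 without normalization and scaled, Abhd6 and Dnase1l3 at -0.02 and -0.01, and Abhd6 at -0.02 with 2 kb flanks. Leaving out 1 library gave -0.29 to 0.79 at Lypd10, -0.34 to 0.75 at Lypd11, -0.06 to 0.75 at Treml4 and -0.10 to 0.19 at Abhd6 and Dnase1l3.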
